A study of Homo sapiens with 3 samples.

Results

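The translation initiation factor genes were taken as all protein-coding genes of the RefSeq GRCh38.p14 table whose symbol starts with EIF, without the genes of the eIF4E-binding proteins EIF4EBP1, EIF4EBP2 and EIF4EBP3. This gave 53 genes of 20033 protein-coding genes on the assembled chromosomes. SOX4 binding near them was read from ChIP-seq, in which chromatin fragments pulled down with an antibody are sequenced. The cells were BT549, a widely used line from a human breast tumour of the triple-negative type. The chromatin had been fixed with DSG and then formaldehyde, and an Abcam SOX4 antibody was used. The study holds 3 libraries of 1 group, named replicates 1, 2 and 3. All 3 titles carry the tag UT, which the labels do not define. No control library, second antibody or second condition was analysed here. Whether the libraries come from separate cultures is not given in the labels, so differences between them may be technical.

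SOX4 is a high-mobility-group transcription factor that is active in development and in many carcinomas. Initiation of translation brings the small ribosomal subunit, the initiator tRNA and the messenger RNA together. eIF1 and eIF1A help the small subunit to select the start codon, eIF2 carries the initiator tRNA as a GTP complex, and eIF2B recycles eIF2. eIF3 is a large scaffold on the small subunit. The cap-binding protein eIF4E, the scaffold eIF4G and the helicase eIF4A form the eIF4F complex, which eIF4B and eIF4H assist. eIF5 and eIF5B act in GTP hydrolysis and subunit joining, and eIF6 keeps free large subunits from joining too early. The EIF symbols also cover genes outside this core, such as the stress-activated eIF2α kinases (EIF2AK1 to EIF2AK4), the translation factor eIF5A, which is known mainly from elongation, and EIF4ENIF1, the eIF4E transporter. By the number in the symbol there were 5 eIF1, 15 eIF2, 14 eIF3, 13 eIF4 and 5 eIF5 genes and 1 eIF6 gene.

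The upstream sequence is shown for 4 genes, because they had the highest replicate 3 scores at a start among EIF genes whose upstream window touched no other coding gene. Each window is the 250 bases before the gene start, read 5′ to 3′ on the gene's strand (the plus strand for all 4) from the RefSeq promoter table of GRCh38.p14. Capitals mark CCAAT, the letters of an NF-Y box, and TATAA, letters like those of a TATA box.
EIF4B, chr12:53006206-53006455: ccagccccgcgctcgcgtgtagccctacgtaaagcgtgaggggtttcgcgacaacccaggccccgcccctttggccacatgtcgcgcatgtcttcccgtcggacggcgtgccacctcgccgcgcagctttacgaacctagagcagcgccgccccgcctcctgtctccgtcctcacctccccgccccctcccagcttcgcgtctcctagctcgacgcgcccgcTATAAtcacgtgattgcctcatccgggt
EIF5, chr14:103333987-103334236: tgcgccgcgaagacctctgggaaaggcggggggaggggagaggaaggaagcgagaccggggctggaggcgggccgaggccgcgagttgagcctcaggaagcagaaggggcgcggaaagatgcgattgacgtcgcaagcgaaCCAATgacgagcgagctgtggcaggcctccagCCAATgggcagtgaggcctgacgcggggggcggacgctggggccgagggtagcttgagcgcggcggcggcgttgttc
EIF4A1, chr17:7572575-7572824: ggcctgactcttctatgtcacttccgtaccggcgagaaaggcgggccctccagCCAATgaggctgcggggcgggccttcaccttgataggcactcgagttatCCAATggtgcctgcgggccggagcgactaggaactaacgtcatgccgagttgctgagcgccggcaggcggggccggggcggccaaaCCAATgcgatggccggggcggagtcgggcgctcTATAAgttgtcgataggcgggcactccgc
EIF4A2, chr3:186783327-186783576: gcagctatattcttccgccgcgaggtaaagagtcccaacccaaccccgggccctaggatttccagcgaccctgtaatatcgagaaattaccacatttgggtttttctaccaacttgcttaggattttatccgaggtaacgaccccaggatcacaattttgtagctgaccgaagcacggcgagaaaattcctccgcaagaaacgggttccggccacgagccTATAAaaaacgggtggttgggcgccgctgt

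EIF4A1 held 3 CCAAT boxes and EIF5 held 2, while EIF4B and EIF4A2 held 0. The TATAA run began 28 bases before the start in EIF4B, 29 in EIF4A1 and 30 in EIF4A2. A summit lay inside the window of EIF5, at base 56 in replicate 1, and inside that of EIF4A2, at base 189 in replicate 3. The replicate 3 summits of EIF4B, EIF4A1 and EIF5 lay past the window, downstream of the start.

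A summit is the 1 bp position of highest signal that the authors' peak caller gave to a peak. A gene was counted when a summit lay within 5 kb of either of its ends. With any library, 16 of the 53 EIF genes counted (30.2%), against 17.8% of all coding genes. Replicate 3 held a summit at all 16 genes, against 15.7% of all coding genes in that list. Replicate 1 held one at 2 EIF genes (3.77%), EIF5 and EIF3H, against 3.69% of all coding genes, and replicate 2 at 1 EIF gene (1.89%), EIF3E, against 3.36%. The EIF count thus stood above the share of all coding genes in replicate 3 alone and near or below it in the other lists. The lists differed in length. Replicate 3 held 4430 summits, replicate 1 held 1368 and replicate 2 held 1713, and the sequencing depth is unknown. Without replicate 3 there were 3 of 53 EIF genes (5.66%), against 5.75% of all coding genes. With every list shortened to its 1368 summits of highest score there were 5 of 53 (9.43%), against 8.43%. No test was made, because the libraries form 1 group and genes are not replicates.

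**Figure D1:**
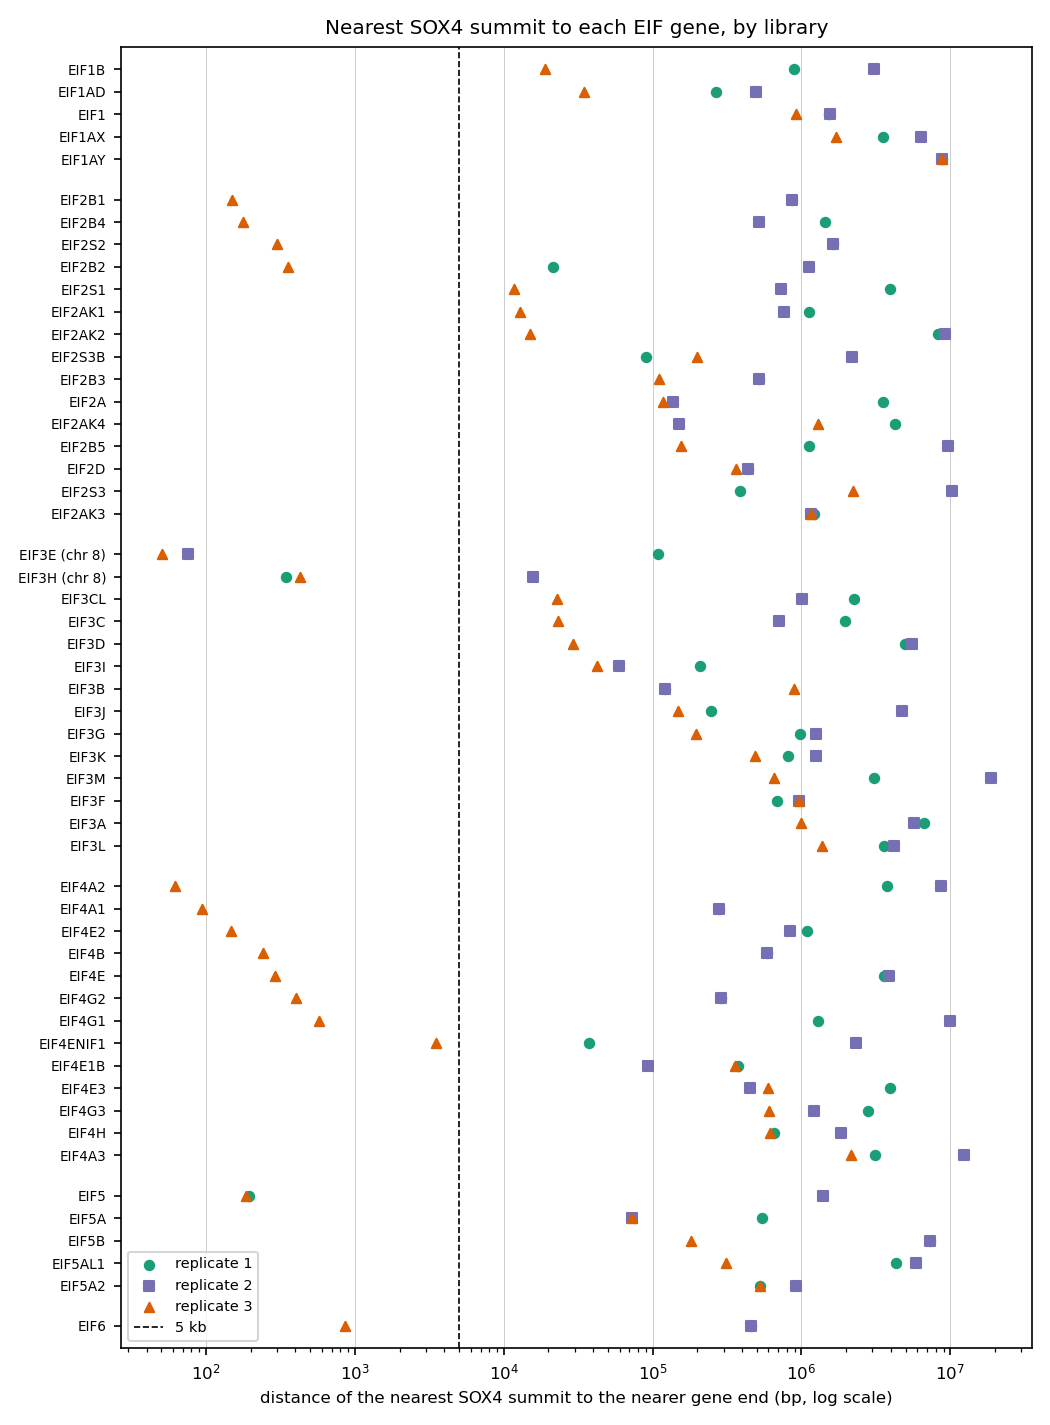
Distance of the nearest SOX4 summit to the nearer end of each of the 53 EIF genes, on a log scale in bp, with a marker for each library (green circles for replicate 1, purple squares for replicate 2, orange triangles for replicate 3), sorted by factor group; markers at nearly equal distances overlap. Left of the dashed 5 kb line lie 16 triangles, 2 circles and 1 square.

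The distance curves showed the same difference between libraries. In replicate 3 the median EIF gene lay 111 kb from a summit and the median coding gene 155 kb. In replicate 1 these medians were 1086 kb for EIF genes and 911 kb for all coding genes, and in replicate 2 they were 1159 kb and 1023 kb. The EIF summits of replicate 3 were of ordinary strength for their list. The deposited score (−log10 of the peak caller's p or q) had its median at 5.69 over the 16 nearest replicate 3 summits, against 5.50 over the 3151 coding genes with one, and ranged between 2.88 at EIF4G2 and 11.0 at EIF3E. The highest score in the list was 111.

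**Figure D2:**
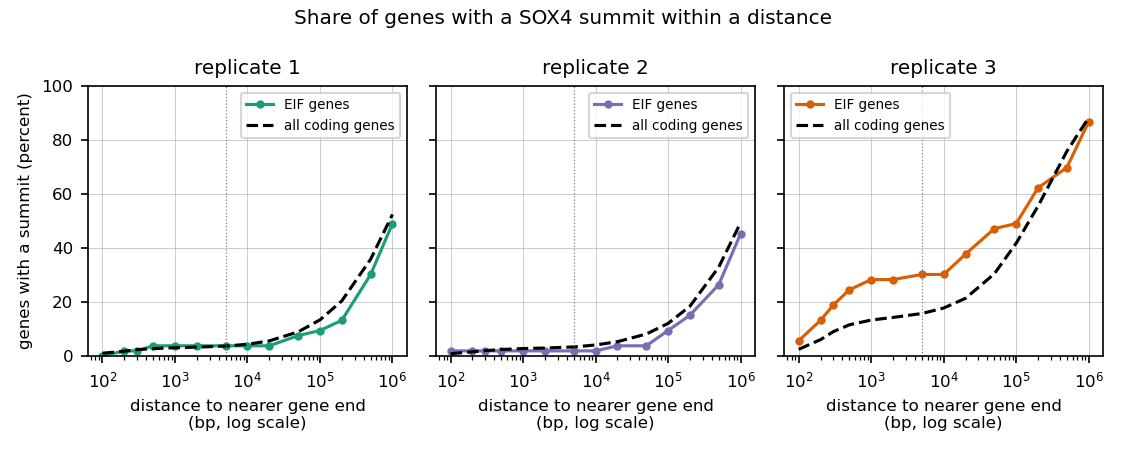
Percent of genes with a summit within a given distance of the nearer gene end (bp, log scale), for the 53 EIF genes (solid line with points) and all 20033 coding genes (dashed), 1 panel per library, with a dotted line at 5 kb. In replicate 3 the EIF curve stands at 30.2% and the other at 15.7% at 5 kb, and in replicates 1 and 2 the curves lie close together there.

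Summits of several libraries at nearly the same position were found at EIF3E and EIF3H. A region joined summits by gaps of at most 200 bp and was called reproducible when at least 2 libraries contributed. Such a region lay within 5 kb of 2 of 53 EIF genes (3.77%), against 2.98% of all coding genes. Both genes encode eIF3 subunits and both lie on chromosome 8, where 42.7% of all coding genes counted with any library and 15% with a reproducible region. Outside chromosome 8 there were 0 reproducible regions at 51 EIF genes, against 2.53% of the other coding genes, and summits of any library at 14 of 51 (27.5%), against 16.9%. No EIF gene had a summit within 5 kb in all 3 libraries. Over all coding genes this was rare too, with a region of all 3 libraries at 0.739%.

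EIF3E (chromosome 8, 108201216 to 108248717) encodes the eIF3 subunit also known as INT6. Its replicate 2 summit lay 76 bp and its replicate 3 summit 51 bp from the upper gene end, both inside the gene at 108248641 and 108248666. The scores were 5.15 in replicate 2, above 39.4% of that list, and 11.0 in replicate 3, above 94.4% of that list. The nearest replicate 1 summit was 109 kb away. The nearest end of another coding gene, that of RSPO2, was 165 kb from these summits.

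EIF3H (chromosome 8, 116642130 to 116766374) encodes another eIF3 subunit. Its replicate 1 summit lay 346 bp and its replicate 3 summit 429 bp past the upper end, at 116766720 and 116766803, with scores of 4.87 and 3.92. The nearest replicate 2 summit was 15.8 kb away. Both summits lay closer to UTP23, a gene of ribosome biogenesis, at 196 and 279 bp. Replicate 3 also had a summit inside EIF3H, 10.8 kb from its upper end, with a score of 3.94.

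EIF5 (chromosome 14, 103334237 to 103345025), whose product stimulates GTP hydrolysis by eIF2, was the third gene with summits of more than 1 library. The replicate 1 summit lay 195 bp before the gene start at 103334042 with a score of 7.24. The replicate 3 summit lay 185 bp past it at 103334422 with a score of 7.38. The positions were 380 bp apart, so they were not joined at 200 bp, and with gaps of up to 500 bp the number of EIF genes with a reproducible region was 3 (5.66%), against 3.63% of all coding genes. The nearest replicate 2 summit was 1386 kb away. No other coding gene ended within 50 kb of either summit.

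Among the factor groups, eIF4 had the most genes with a summit, 8 of 13, all from replicate 3 alone. The eIF2 group had 4 of 15, eIF3 2 of 14, eIF5 1 of 5, eIF6 1 of 1 and eIF1 0 of 5. Of all coding genes, 17.8% had one. The median distance to the nearest summit of any library was 0.572 kb in the eIF4 group, 90.5 kb in eIF2, 135 kb in eIF3, 183 kb in eIF5 and 916 kb in eIF1, against 121 kb over all coding genes. Without chromosome 8 the eIF3 count was 0 of 12, against 16.9% of the other coding genes, and its median distance 173 kb. The other groups kept their counts because none of their members lie on chromosome 8. Without replicate 3 the eIF4 and eIF2 counts were both 0, eIF3 kept 2 genes and eIF5 1, against 5.75% of all coding genes. The groups are small and were not tested against each other.

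**Figure D3:**
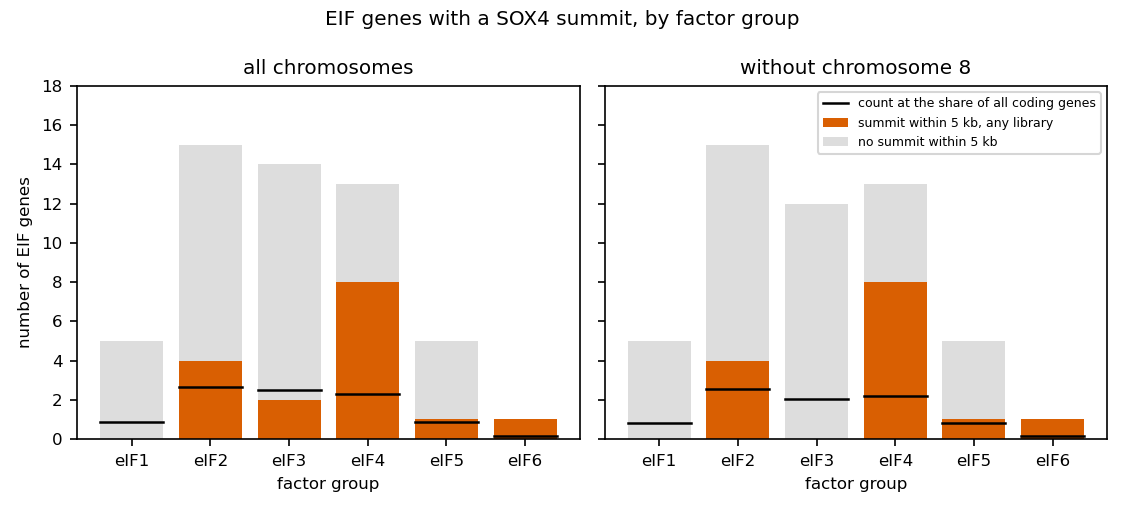
Number of EIF genes in each factor group with a summit of any library within 5 kb of a gene end (orange) and without one (grey), with all chromosomes on the left and without chromosome 8 on the right. The black lines mark the count that the share of all coding genes, 17.8% and 16.9%, would give; the eIF4 bar reaches 8 of 13 in both panels, and the eIF3 bar is 2 of 14 on the left and 0 of 12 on the right.

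The 8 summit-bearing eIF4 genes were EIF4A1, EIF4A2, EIF4B, EIF4E, EIF4E2, EIF4ENIF1, EIF4G1 and EIF4G2. For the helicase eIF4A, EIF4A2 had its replicate 3 summit 62 bp before the gene start (chromosome 3, 186783515, score 6.05) and EIF4A1 94 bp past its start (chromosome 17, 7572919, score 7.15). The third helicase gene, EIF4A3, known for its part in the exon junction complex, had its nearest summit 2145 kb away. For the cap-binding proteins, EIF4E had a summit 290 bp past its start (chromosome 4, 98928843, score 4.49). EIF4E2, which encodes the cap-binding repressor 4EHP, had one 148 bp past its start (chromosome 2, 232550837, score 6.06). EIF4E3 and EIF4E1B had none closer than 454 and 93.9 kb. EIF4B, the cofactor of eIF4A, had the group's highest score, 7.57, at 243 bp past its start (chromosome 12, 53006699), and the other cofactor gene, EIF4H, had none within 617 kb. In replicates 1 and 2 the nearest summits to EIF4A2, EIF4A1, EIF4E, EIF4E2 and EIF4B were all over 200 kb away.

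The scaffold genes differed in where the summit lay. EIF4G2, whose product DAP5 lacks the eIF4E-binding part of eIF4G, had a summit 403 bp before its start (chromosome 11, 10809329). Its score of 2.88 stood above 0.497% of the replicate 3 list, so it was among the weakest there. EIF4G1 had its summit 572 bp past the far end of the gene, 21.3 kb from its start, at chromosome 3, 184335930, with a score of 5.69. That position is 4 bp from an end of FAM131A. EIF4G3 had no summit within 606 kb. EIF4ENIF1 had a summit 3494 bp inside its outer start and 232 bp before another annotated start of the gene (chromosome 22, 31490074, score 5.61). It was the member nearest to the 5 kb limit from inside. The next gene outside it was EIF2S1 at 11.7 kb.

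Of the 5 subunit genes of eIF2B, the exchange factor of eIF2, 3 had a summit, in replicate 3 alone, where 15.7% of all coding genes had one. EIF2B1 had a replicate 3 summit 151 bp past its start (chromosome 12, 123633535, score 5.69), EIF2B4 177 bp past its outer start and 136 bp before another annotated start (chromosome 2, 27370161, score 4.43) and EIF2B2 355 bp past its start (chromosome 14, 75003276, score 5.09). EIF2B3 and EIF2B5 had none within 111 and 154 kb. Of the 3 genes of the eIF2 trimer, EIF2S2, the beta subunit gene, had a replicate 3 summit 300 bp past its upper end (chromosome 20, 34112543, score 5.61). The nearest summits to the alpha subunit gene EIF2S1 and the gamma subunit gene EIF2S3 were 11.7 and 387 kb away. The 4 genes of the eIF2α kinases had 0 summits within 5 kb, where 17.8% of all coding genes had one with any library. The nearest summit to EIF2AK1 (HRI) was at 12.8 kb, to EIF2AK2 (PKR) at 15.1 kb, to EIF2AK4 (GCN2) at 151 kb and to EIF2AK3 (PERK) at 1159 kb. These sets of genes are small and were not tested against each other.

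The eIF6 gene had a replicate 3 summit 866 bp past its lower end (chromosome 20, 35278040, score 6.17), 6.73 kb from its start. The same position was 82 bp from an end of MMP24-AS1-EDEM2. In the eIF5 group, EIF5A had its nearest summits in replicates 2 and 3 at 72.4 and 72.5 kb, and EIF5B, which acts in subunit joining, at 183 kb. In the eIF1 group EIF1B was closest at 18.8 kb, followed by EIF1AD at 34.7 kb and EIF1 at 916 kb. The largest distances to a summit of any library among the 53 genes were those of the Y-linked EIF1AY at 8828 kb, of EIF4A3 at 2145 kb and of EIF1AX at 1698 kb. The sample titles do not say whether the cells carry a Y chromosome, so the EIF1AY value is uncertain. Of the 37 members with no summit within 5 kb, 9 had one between 10 and 50 kb and 25 had none within 100 kb. In replicate 3, 49.1% of EIF genes and 41.8% of all coding genes had a summit within 100 kb.

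Where the strand was known, most summits lay at gene starts. The promoter table gave a strand for 45 of the 53 EIF genes and for 13 of the 16 with a summit, the exceptions among these being EIF3E, EIF3H and EIF2S2. At 10 of the 13 a summit lay within 500 bp of the gene start, so 10 of the 45 EIF genes (22.2%) had one there, against 13.3% of the 15842 coding genes with a strand. The 11 summits within 500 bp of the outer start of these 10 genes lay upstream of it in 3 cases, by 62 to 403 bp, and downstream in 8 cases, by 94 to 355 bp. Within 5 kb of the start, 11 of 45 EIF genes (24.4%) had a summit, against 16.3% of the coding genes. Of these 11 EIF genes, 10 had one within 500 bp, and of the 2582 coding genes 2113 did. A position at the start was thus not particular to EIF genes.

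**Figure D4:**
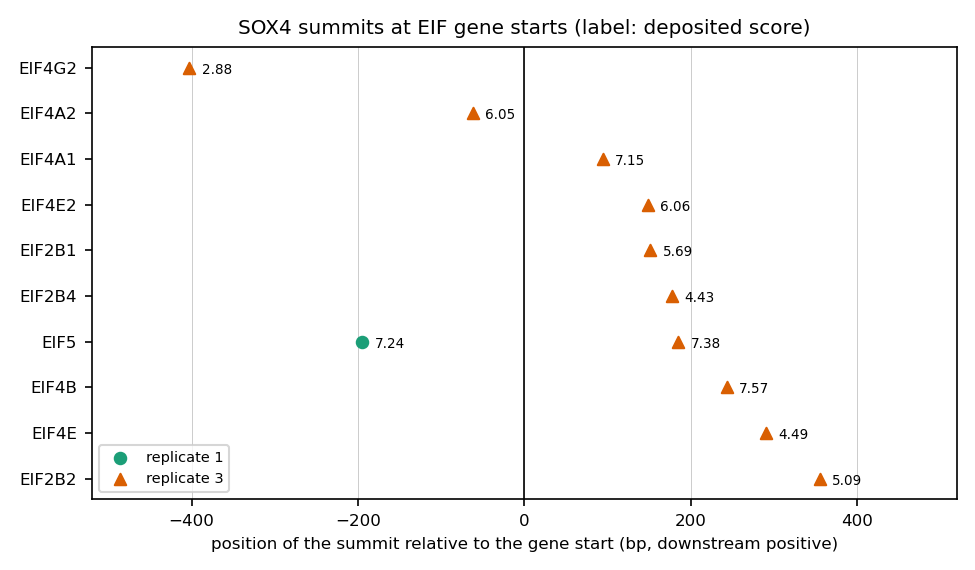
Position of each SOX4 summit within 500 bp of the start of an EIF gene with a known strand, in bp with downstream positive, for the 10 genes that have one; the number beside each marker is the deposited score. The green circle is replicate 1 and the orange triangles are replicate 3; 8 of the 11 summits lie right of the start at 0, and the EIF5 summits lie on either side of it.

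Other coding genes shared several of these positions. At 7 of the 16 EIF genes (43.8%) the nearest summit also lay within 1 kb of an end of another coding gene, against 35.8% of all 3565 coding genes with a summit. The pairs were EIF4A1 with SENP3, EIF4E2 with TIGD1, EIF2B1 with the transcription factor IIH gene GTF2H3, EIF2B4 with the sorting nexin gene SNX17, EIF3H with UTP23, EIF4G1 with FAM131A and EIF6 with MMP24-AS1-EDEM2. At EIF3H, EIF4G1 and EIF6 the other gene was the closer one. Without such genes, 13 of 50 EIF genes had a summit (26.0%), against 14.7% of the coding genes treated likewise. EIF4A1 had another replicate 3 summit past its far end, 528 bp away with a score of 4.14, which was 104 bp from an end of CD68.

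EIF3C and EIF3CL, near-identical copies on chromosome 16, each had a replicate 3 summit deep inside the gene and none within 5 kb of an end. The EIF3CL summit lay at 28403695, 24114 bp from the lower gene end, with a score of 7.11. The EIF3C summit lay at 28711631, 24099 bp from the upper end, with a score of 5.72. Reads from copies this alike may be placed on either, so a value for each copy is uncertain. How the authors treated such reads is not given in the sources used here. Counted over the whole gene body, 18 of 53 EIF genes had a summit within 5 kb (34.0%), these 2 included, against 20.4% of all coding genes.

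Promoter windows of EIF genes held more CpG at the median than those of all coding genes. The window of 250 bases before to 50 bases after the start held a median of 28.5 CpG at the 10 EIF genes with a summit within 1 kb of the start, 28.0 at the 35 other EIF genes, and 22.0 over all 15842 coding genes with a window. Among all coding genes with such a summit the median was 27.0. The windows of EIF genes with and without a summit thus had nearly the same CpG count. Among genes with at least 28 CpG, 8 of 24 EIF genes had a summit within 5 kb of either end (33.3%), against 23% of 5560 coding genes.

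Of the motifs searched on both strands of these windows, ACAAAG and ACAATG, core letters of the SOX motif, were each in 0 of the 10 EIF windows with a summit at the start. Over all coding genes with a summit at the start they were in 10.02% and 6.17%, and over all windows in 12.9% and 7.92%. ACAAAG was in the window of EIF3F and ACAATG in those of EIF2AK4 and EIF5B, and these genes had no summit within 5 kb. The ETS letters CCGGAAG were in 3 of the 10, against 22.7% over all genes with a summit at the start and 14.2% of all windows. CCAAT was in 6 of the 10, against 34.6% and 36.4%, and the YY1 letters AAGATGGC in 1 of the 10, against 5.92% and 3.86%. The NRF1 motif and the CRE letters TGACGTCA were in 0 of the 10, against 3.85% and 3.89% over all genes with a summit at the start and 1.77% and 2.56% of all windows. TATAA, added after the sequences were read, was in 4 of the 10, against 12.0% and 16.9%. Of the 4, EIF4B, EIF4A1 and EIF4A2 were among the sequences read, so this count is not independent of the choice of motif. In EIF2B2, the other one, the letters began 150 and 149 bases before the start on the 2 strands. EIF1 and EIF4H, with no summit within 5 kb, held TATAA at 28 and 29 bases, in EIF4H on the opposite strand. Short motifs are found in many windows, and the windows do not reach most of the summits, so these counts describe letters and not binding sites.

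Other genes of translation were read the same way, from 3 lists. Cytosolic aminoacyl-tRNA synthetases, which charge tRNAs, had a summit of any library at 12 of 20 genes (60.0%), elongation and release factors at 6 of 14 (42.9%) and regulators and partners of initiation at 9 of 22 (40.9%), against the 17.8% of all coding genes. Reproducible regions lay at 2 of 20, 0 of 14 and 3 of 22 genes, against 2.98%. As with the EIF genes, replicate 3 gave most of the genes with a summit, 11, 6 and 8, against 15.7% of all coding genes. Replicate 1 gave 4, 1 and 3, against 3.69%, and replicate 2 gave 1, 0 and 3, against 3.36%. In replicate 1 all 3 lists stood above the share, the elongation and release factors with only 1 gene. The EIF genes were close to that share (3.77%). In replicate 2 the synthetases, with only 1 gene, and the regulators and partners stood above the share. The lists were not tested against the EIF genes.

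Summits of all 3 libraries lay at DENR, BZW1 and TARS1. DENR encodes a partner of MCTS1 in re-initiation. Its summits lay 40, 5 and 98 bp from a gene end in replicates 1, 2 and 3, with scores of 21.4, 25.8 and 6.63. In replicates 1 and 2 the highest scores at an EIF gene were 7.24 and 5.15. BZW1, which encodes an eIF5-mimic protein, had summits at distances of 257, 132 and 402 bp, which scored 5.09, 4.36 and 7.16. TARS1, the threonyl-tRNA synthetase gene, had summits at distances of 308, 403 and 345 bp, which scored 6.40, 3.90 and 9.53. EIF4EBP1, the gene of an eIF4E inhibitor on chromosome 8, had a region of replicates 2 and 3, 712 and 762 bp away, scoring 3.72 and 3.50. In replicate 3 alone, summits lay 121 bp from ABCE1, a ribosome recycling gene, and 209 bp from EEF1A1, an elongation factor gene, with scores of 7.02 and 7.76. ETF1, the gene of release factor eRF1, had summits at 234 bp in replicate 1 and 304 bp in replicate 3.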

How the data were processed

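Summits of 1 bp had been called in each library on its own. The submitters' processing notes name the tools BWA, SAMtools and MACS2 without versions. Column values deposited by the authors are −log10 values, of a p-value or a q-value for every summit; which of these, and any control, is not given in the sources used here. The notes name hg19, but contig names and positions past hg19 chromosome ends are those of GRCh38, so positions are 1-based on GRCh38.

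Distances were computed with Python 3.11.15, pandas 2.3.3 and NumPy 2.4.6, from each summit to the nearer end of each of 20033 coding genes. Figures used matplotlib 3.10.9. Gene starts came from the strand of 15842 promoter entries (45 of 53 EIF genes matched). Regions joined summits by gaps of at most 200 bp. Scores were ranked only within their own list. On simulated data, the nearest distance equalled the planted one for 197 of 200 planted summits and was smaller for the others. With 80 pairs planted 150 bp apart and 40 planted 250 bp apart, 80 regions were found. No statistical test was made. The members and lists were chosen with earlier results of these data known. Every EIF gene with a summit within 5 kb is named, with the nearest and farthest of the rest. Read depth was unknown, so no interval is given. Alternatives changed distance, score, gap, libraries, gene end and chromosome 8. Those on CpG count, neighbouring genes, copies and other annotated starts, and the TATAA search, were added after the data were seen.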

Additional observations from a re-analysis of the deposited data

How the results depend on the processing

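The count of 16 EIF genes with a summit of any library was 25 at 50 kb (47.2%, against 34.4% of all coding genes), 5 with lists of equal length and 8 among genes rich in CpG (of 24). It ranged between 3 and 16 when 1 library was left out, and lay between 11 and 18 in the other settings. The count of 2 with a reproducible region was 0 without chromosome 8, with scores at or above the list median and with all 3 libraries required. The shares of coding genes in these settings were 2.53%, 1.27% and 0.739%. The EIF count was 1 with lists of equal length (1.89%, against 1.85%). It ranged between 0 and 1 when 1 library was left out, against 1.06% to 1.72% of all coding genes. By gene start the count could only be 0, because EIF3E and EIF3H have no known strand and were not among the 45 genes measured. By library, scores at or above the median gave 1 gene in replicate 1 and 0 in replicate 2, against 1.66% and 1.55% of all coding genes. Leaving out chromosome 8 gave 1 and 0, against 3.31% and 2.84%. The eIF3 count was 0 without chromosome 8, against 16.9% of the other coding genes. Without 1 library the eIF2 count ranged between 0 and 4, eIF4 between 0 and 8 and eIF6 between 0 and 1. The share of all coding genes then ranged between 5.75% and 17.0%. No paired analysis was possible because the libraries form 1 group.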

Other observations

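EIF pseudogenes, processed or duplicated copies of the factor genes, had a summit within 5 kb about as seldom as pseudogenes in general. Of 90 EIF pseudogenes on the assembled chromosomes, 2 lay within 5 kb of a summit in at least 1 list (2.22%), against 3.004% of all 16845 pseudogenes. EIF3FP2 on chromosome 13 had summits of all 3 libraries 4459, 4467 and 4461 bp away, with scores of 20.4, 34.7 and 32.2 in replicates 1, 2 and 3, higher than those at any EIF coding gene. The nearest end of a coding gene, TUBA3C, was 962 kb from them. EIF3FP1 on chromosome 21 had a replicate 2 summit 4919 bp away with a score of 16.7, and the nearest coding gene end, of TPTE, was 196 kb from it. A reproducible region lay within 5 kb of 1 of the 90 EIF pseudogenes, against 111 of all 16845. How reads that match several places were treated is not given in the sources used here, so these positions and scores are uncertain too. These pseudogenes were named after their values were seen.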
